A study of Homo sapiens with 6 samples.

Results

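The nuclear genes for the subunits of respiratory complexes II, III, IV and V were followed in HaCaT cells, an immortalised human keratinocyte line, with and without interferon beta. Members were chosen by symbol alone: SDHA to SDHD, CYC1, and every symbol starting with UQCR, COX4 to COX8 or ATP5, leaving out symbols of pseudogene form and those with a hyphen. The rule gave 50 of the 60671 genes in the deposited table, with 4 in complex II, 10 in complex III, 17 in complex IV and 19 in complex V. It also takes in COX7A2L, ATP5IF1 and a few isoform genes that are usually active in other tissues.

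The study holds 6 libraries in 2 groups, 3 with interferon beta (IFN-beta, 160 ng/mL, 24 h) and 3 controls. All cells are labelled wild type, and both groups spent those 24 h in high-glucose medium without serum. The batch is labelled unknown, and nothing in the labels says that replicates were separate cultures, so p-values reflect only how far these libraries scatter, which may be technical scatter. Levels are FPKM, the deposited unit that scales reads by gene length and library depth, given as mean ± SD with n = 3 libraries a group. The tests address how far the transcripts of each complex differ between the groups.

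Complex II oxidises succinate and passes electrons to ubiquinone. Complex III moves them on to cytochrome c, complex IV hands them to oxygen, and complex V, the ATP synthase, makes ATP from the proton gradient that complexes III and IV help to build. Complexes III, IV and V mix nuclear subunits with subunits encoded in mitochondrial DNA, whereas all subunits of complex II are nuclear. Type I interferon acts through a surface receptor that switches on antiviral genes.

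Library totals lay between 25832158 and 30594527 reads. As a check of the treatment labels, the interferon-induced gene ISG15 had 14.3 to 16.2 FPKM in control and 533 to 624 FPKM in IFN-beta libraries, and IFIT1 had 5.96 to 8.47 against 286 to 314 FPKM. The 12 keratinocyte markers summed to 4050 to 4405 FPKM in control and 4121 to 4193 FPKM with IFN-beta, but this sum hides opposite changes. Of the 12, 5 were called higher and 2 lower (limma, Benjamini-Hochberg adjusted p under 0.05), beside 22.5% and 19.9% of all genes tested. KRT5 fell from 1374 ± 81.0 to 965 ± 14.8 FPKM, and TP63 rose from 131 ± 10.1 to 174 ± 5.01 FPKM. Marker lists of fibroblasts (1.77 to 2.47 against 2.55 to 3.27 FPKM), melanocytes (1.41 to 1.43 against 1.44 to 1.87), immune cells (3.21 to 4.61 against 4.38 to 4.64), endothelium (0.696 to 0.964 against 2.12 to 2.21) and muscle (at most 0.134) were low, and all 4 germ cell markers had 0 reads. Few of these markers passed the filter on low values. CDH5 (endothelium, mean 0.731 to 1.97 FPKM), COL1A1 (fibroblasts, 1.80 to 2.69) and ITGAM (immune cells, 0.519 to 0.989) were called higher with IFN-beta. PMEL (melanocytes) and CD14 (immune cells) were tested and not called. Markers at 0 in every library numbered 1 of 7 for fibroblasts, 2 of 4 for melanocytes, 1 of 5 for immune cells, 0 of 3 for endothelium and 2 of 5 for muscle. In bulk RNA, fewer cells of a type and less RNA per cell cannot be told apart.

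Most subunit genes were lower with IFN-beta, in every complex. Of the 43 members that passed the filter on low values, 37 fell, 0 rose and 6 did not pass the test (limma, Benjamini-Hochberg adjusted p under 0.05). Over all 15163 genes tested, 42.4% were called, 19.9% lower and 22.5% higher. The groups did not overlap, with IFN-beta below every control, in 37 of the 43 members, against 25.4% of all genes (28.6% lay above every control and 54% did not overlap in either direction). The members' median log2 change was -0.32, within a range of -1.03 to 0.08, beside 0.01 for all genes tested. These changes are on the scale of log2(FPKM + 0.5).

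Reads on the 50 genes made up 0.730%, 0.743% and 0.795% of each control library and 0.592%, 0.594% and 0.616% of each IFN-beta library. The shares of the groups were apart, and the highest control share was that of replicate 3, the library with the fewest reads. Control replicate 3 held the highest control value in 34 of the 43 members (79.1%), against 31.1% of all genes tested. Without it 34 members were called lower and their median was -0.29. IFN-beta replicate 3 held the highest IFN-beta value in 27 members (62.8%), against 36.6% of all genes, and without it 36 members were called lower with a median of -0.33. The lengths behind the members' FPKM were short, with a median of 789 bases against 1458 bases over all genes. Over 10138 genes with several transcripts, this length had a median ratio of 0.9999 to the mean annotated transcript length of the gene. It equalled that mean within 1 base in 24.6% of them. The length is thus not that of a given transcript, and levels and sums compared between members depend on it. With each library's trend on length removed, 33 members were called lower and the median was -0.27. Across the 43 members the change had a Spearman rho of 0.018 with length and -0.22 with the control level. Over all 15163 genes tested these were 0.10 and -0.20, so the value for the control level is near that of all genes. These are descriptions over genes that share the same libraries.

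**Figure D1:**
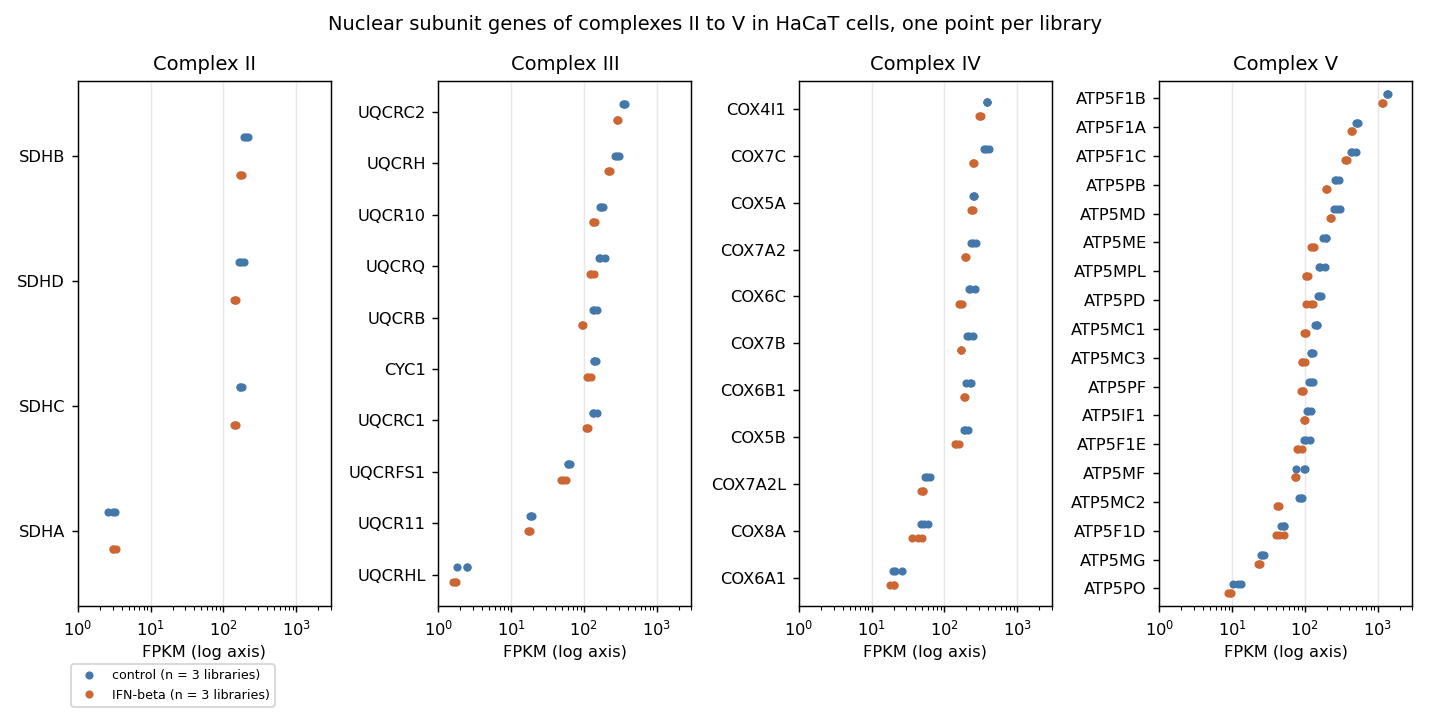
FPKM (log axis) of the 43 tested members in each of the 6 libraries, by complex, with control libraries in blue and IFN-beta libraries in orange. In 37 of the 43 genes all IFN-beta points lie below all control points, and levels run from about 2.23 FPKM (UQCRHL) to 1340 FPKM (ATP5F1B) in control.

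**Figure D2:**
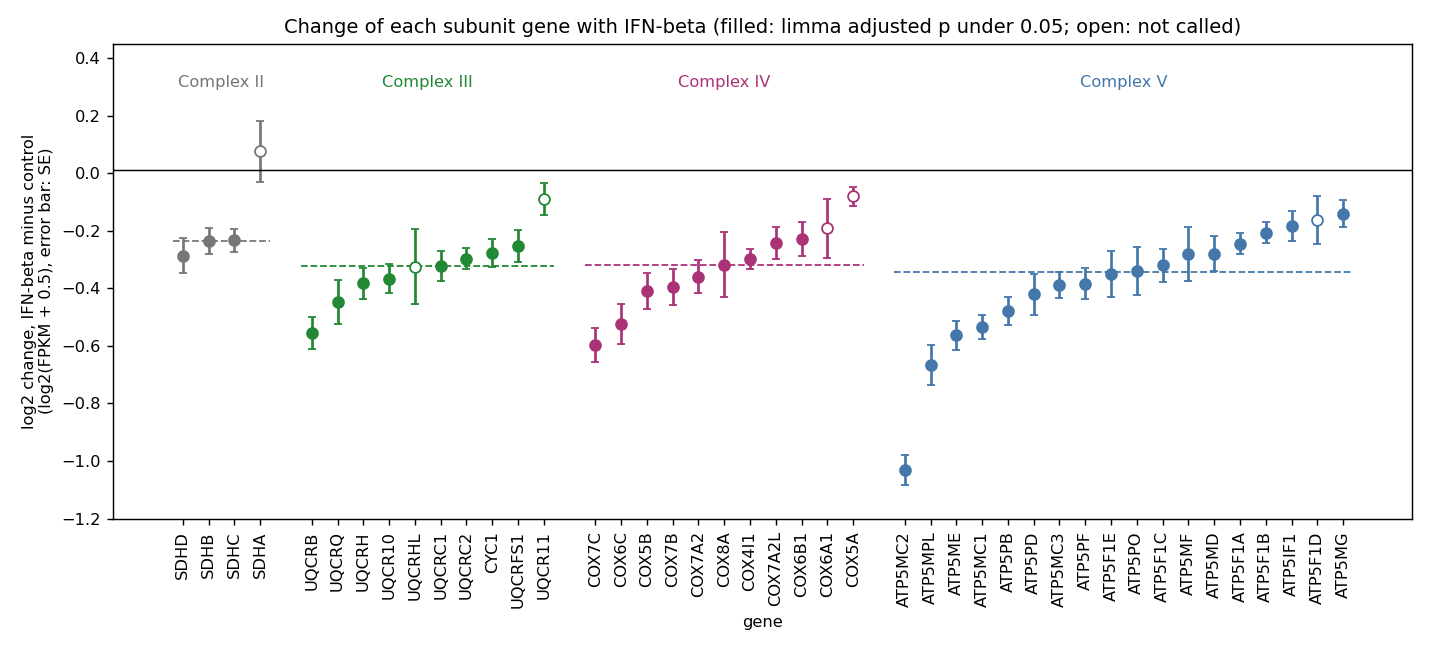
Log2 change of each tested member with its standard error, by complex; filled points passed the limma test, dashed lines mark the median of each complex and the solid line marks the median of all genes (0.01). ATP5MC2 lies lowest at -1.03, and SDHA is the only point above the solid line.

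Because these genes moved together, the stretches at their promoters were read for letters that are known to bind regulators of respiratory genes: NRF1 (GCGCNTGCG) and the ETS family, to which GABPA belongs (CCGGAAG), each on both strands. RefSeq windows (GRCh38.p14, 250 bases before to 50 after the start) were held for 38 of the 50 members, of which 34 were tested. NRF1 letters stood in 13 of the 34 (38.2%), against 17.2% of the 10382 tested genes with a window, and ETS letters in 16 (47.1%) against 22.8%. YY1 letters (AAGATGGCG) stood in 3 members (8.82%, against 4.73%), SP1 letters (GGGCGG) in 22 (64.7%, against 76.1%) and TATAAA in 3 (8.82%, against 8.44%). Letters of the interferon-stimulated response element (GAAANNGAA) were in 3 (8.82%, against 9.15%). The median log2 change was -0.32 in the 24 members with NRF1 or ETS letters and -0.35 in the 10 without. Those without include COX7C, COX7B, COX7A2, ATP5PB and ATP5MC1, which were called lower, and COX5A, which was not called. No window was held for UQCRB, COX6C, CYC1, SDHC or ATP5MC3, so these were not searched. A match is a description of the sequence only.

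Shown next are 30-base stretches, 5′ to 3′ on the gene's strand, around such a match in up to 3 called members of each complex, those with 1 start and the largest fall, with the matched letters in capitals. The first 2 belong to complex II, the next 3 to complex III, the next 3 to complex IV and the last 3 to complex V. The complex II stretches are chr11:112086752-112086781 (SDHD, plus strand, NRF1 letters centred 106 bases before the start) and chr1:17054143-17054172 (SDHB, minus strand, ETS letters further upstream). Those of complex III are chr5:132866576-132866605 (UQCRQ, plus strand, ETS, 51 before), chr1:46303640-46303669 (UQCRH, plus strand, ETS, 43 before) and chr22:29767351-29767380 (UQCR10, plus strand, NRF1, 3 before). Those of complex IV, all on the plus strand with ETS letters, are chr2:97646013-97646042 (COX5B, 34 before), chr11:63974590-63974619 (COX8A, 15 before) and chr16:85799685-85799714 (COX4I1, 5 after). Those of complex V, all on the minus strand, are chr14:103921528-103921557 (ATP5MPL, NRF1, 13 before), chr4:674476-674505 (ATP5ME, NRF1, 214 before) and chr17:75047053-75047082 (ATP5PD, ETS, 98 before). The same letters recur in either orientation at distances that differ between the genes.
SDHD: cagctgtgtttGCGCATGCGcgacgggtgt
SDHB: ccacccgggaaaCCGGAAGccgcctcccac
UQCRQ: aaatggtatctcCCGGAAGttacctcacga
UQCRH: gagtgtgccgcaCTTCCGGccagatcgccg
UQCR10: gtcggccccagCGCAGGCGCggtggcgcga
COX5B: agaagcccgcccCCGGAAGtccctcctgtc
COX8A: ccagctccagaaCTTCCGGccagcgcagcc
COX4I1: cggccttgctctCTTCCGGtcgcgggacac
ATP5MPL: atcccctgcgcGCGCCTGCGcgctcggtga
ATP5ME: cgcagcaactgCGCAGGCGCagccgatgat
ATP5PD: cccgggaagataCTTCCGGaaccagccctc

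In complex II, 3 of 4 genes fell and the median log2 change was -0.23. SDHB, the iron-sulfur subunit (chromosome 1, 17018722 to 17054032), stood at 193, 204 and 215 FPKM in control and 169, 172 and 178 FPKM with IFN-beta. Its groups did not overlap, and it fell from 204 ± 10.7 to 173 ± 4.23 FPKM, a log2 change of -0.24 ± 0.045 (SE; limma adjusted p = 0.00289). SDHC and SDHD anchor the enzyme in the inner membrane. SDHC (chromosome 1, 161314381 to 161371964) had 168, 168 and 178 FPKM in control and 151, 146 and 141 FPKM with IFN-beta, a log2 change of -0.23 ± 0.041 (limma adjusted p = 0.002). SDHD (chromosome 11, 112086824 to 112120016), whose promoter stretch carries NRF1 letters, had 162, 174 and 192 FPKM in control and 139, 149 and 144 FPKM with IFN-beta (-0.29 ± 0.060, limma adjusted p = 0.00487). In both anchor genes each IFN-beta library was below each control.

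SDHA, the flavoprotein that oxidises succinate (chromosome 5, 218241 to 257082), differed from its partners in level and change. It had 3.05, 3.27 and 2.59 FPKM in control and 3.04, 3.40 and 3.02 FPKM with IFN-beta, so the groups overlapped. Its log2 change was 0.08 ± 0.106 (limma adjusted p = 0.59), which became -0.04 after quantile normalization and -0.0042 without control replicate 3. Of the 50-base words in its coding transcripts 11.1% also occur in other genes, so its level is uncertain where the counting split or dropped reads; the part this played was not tested. The complex II sum was 554 ± 30.7 FPKM in control and 466 ± 3.42 FPKM with IFN-beta, 15.97% lower, and SDHA added little to it.

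In complex III, 8 of 10 genes fell and the median log2 change was -0.32. Its catalytic core consists of the redox carriers CYC1 (cytochrome c1) and UQCRFS1 (the Rieske iron-sulfur protein) with mitochondrially encoded cytochrome b, held by the core proteins UQCRC1 and UQCRC2. CYC1 had 140, 137 and 145 FPKM in control and 113, 111 and 124 FPKM with IFN-beta, with no overlap, with means of 141 ± 4.14 and 116 ± 7.11 FPKM (-0.28 ± 0.049 on the log2 scale, limma adjusted p = 0.00202). UQCRFS1 had 61.1, 60.7 and 65.0 FPKM against 51.5, 49.2 and 56.3 FPKM (-0.25, limma adjusted p = 0.0062). The core proteins UQCRC1 and UQCRC2 had log2 changes of -0.32 ± 0.052 and -0.30 ± 0.037, and all 4 of these genes were called. Their sum was 18.4% lower with IFN-beta.

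The small subunits around that core included the largest fall of complex III. UQCRB, the small ubiquinone-binding subunit, had 132, 137 and 153 FPKM in control and 95.3, 93.2 and 97.6 FPKM with IFN-beta. Every IFN-beta value was far below the lowest control value (log2 change -0.56 ± 0.055, limma adjusted p = 7.69e-05). UQCRQ, another small subunit (chromosome 5, 132866630 to 132868847), had 159, 168 and 198 FPKM against 125, 123 and 136 FPKM (-0.45 ± 0.077). UQCR10 (chromosome 22, 29767369 to 29770413) had 172, 168 and 186 FPKM against 131, 132 and 143 FPKM (-0.37). UQCRH, the acidic hinge protein that helps cytochrome c dock (chromosome 1, 46303698 to 46316776), had 268, 281 and 308 FPKM against 218, 213 and 225 FPKM (-0.38 ± 0.053, limma adjusted p = 0.000519). UQCRQ and UQCRH each carry ETS letters near the start, and UQCR10 carries NRF1 letters, while UQCRB had no promoter window to search.

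UQCR11, a small subunit, had the smallest change of complex III and did not pass the test. It had 18.7, 19.4 and 17.9 FPKM in control and 16.8, 18.4 and 17.4 FPKM with IFN-beta (log2 change -0.09 ± 0.055, limma adjusted p = 0.223), and its groups overlapped. UQCRHL, an intronless copy of the hinge gene, had 1.78, 2.45 and 2.47 FPKM in control and 1.60, 1.73 and 1.68 FPKM with IFN-beta (-0.32 ± 0.131, limma adjusted p = 0.0755). Its groups did not overlap although the test was not passed, and it passed without control replicate 1 (-0.45, limma adjusted p = 0.0194), after quantile normalization (0.028) and with voom on recovered reads (0.041). UQCRH shares 22.7% of its 50-base words with UQCRHL, so reads of the pair cannot be assigned with certainty. The complex III sum was 1493 ± 67.5 FPKM in control and 1164 ± 30.3 FPKM with IFN-beta, 22.0% lower.

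In complex IV, 17 genes matched the rule, 11 were tested, 9 of these fell and the median log2 change was -0.32. COX4I1 and COX5A are among the first nuclear subunits to join during assembly, and they differed in size of change. COX4I1, the ubiquitous isoform of subunit 4, had 382, 379 and 387 FPKM in control and 303, 313 and 318 FPKM with IFN-beta (-0.30 ± 0.034, limma adjusted p = 0.000185). Its 2 groups were wide apart relative to their spread of 4.02 and 7.42 FPKM (SD). COX5A, its assembly partner, had 253, 251 and 251 FPKM in control and 231, 240 and 243 FPKM with IFN-beta (-0.08 ± 0.034, limma adjusted p = 0.091). The COX5A groups did not overlap, but the test was passed in only 1 of the 18 alternatives, median-of-ratios scaling (-0.11, limma adjusted p = 0.0398). COX5B, the zinc-binding subunit on the matrix side, had 191, 189 and 214 FPKM against 141, 145 and 161 FPKM (-0.41 ± 0.063, limma adjusted p = 0.000962).

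The membrane-spanning small subunits COX7C and COX6C had the largest falls of complex IV. COX7C (chromosome 5, 86617928 to 86620962) had 346, 372 and 412 FPKM in control and 243, 247 and 254 FPKM with IFN-beta. It fell from 377 ± 33.3 to 248 ± 5.20 FPKM, with no overlap (-0.60 ± 0.059, limma adjusted p = 7.64e-05). COX6C had 225, 220 and 266 FPKM in control and 158, 162 and 173 FPKM with IFN-beta (-0.52 ± 0.071, limma adjusted p = 0.000457). In both genes control replicate 3 was the highest library, and the falls did not rest on it alone, since all other controls also lay above all IFN-beta values. COX7B had 205, 215 and 246 FPKM against 168, 170 and 167 FPKM (-0.40 ± 0.062, limma adjusted p = 0.00103), and COX7A2 had 231, 247 and 273 FPKM against 194, 190 and 200 FPKM (-0.36 ± 0.058, limma adjusted p = 0.00125). COX7A2L, which takes part in joining complexes III and IV into supercomplexes, had 54.4, 58.4 and 62.7 FPKM against 50.1, 50.4 and 47.6 FPKM, a smaller change of -0.24 ± 0.055 (limma adjusted p = 0.00746).

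Calls were less firm in the remaining complex IV genes. COX6B1, which faces the intermembrane space, had 223, 199 and 235 FPKM in control and 183, 184 and 192 FPKM with IFN-beta (-0.23 ± 0.059, limma adjusted p = 0.0128), and lost the call without the filter on low values (0.05002). COX8A had 59.1, 48.1 and 52.4 FPKM against 35.8, 43.2 and 49.5 FPKM, so 1 IFN-beta library lay above a control (-0.32 ± 0.112, limma adjusted p = 0.0485). Its call ended in 11 of 18 alternatives, among them leaving out control replicate 1 (limma adjusted p = 0.144), control replicate 3 (0.0768), IFN-beta replicate 1 (0.139) or IFN-beta replicate 2 (0.0922). Its change was -0.20 without IFN-beta replicate 1. COX6A1 had 26.5, 20.8 and 19.8 FPKM against 17.9, 19.99 and 20.3 FPKM and did not pass (-0.19 ± 0.102, limma adjusted p = 0.166), with -0.07 without control replicate 1. The complex IV sum was 2272 ± 128 FPKM in control and 1772 ± 50.3 FPKM with IFN-beta, 22.0% lower.

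The isoforms of complex IV known from lung, heart and skeletal muscle or testis were not detectable at this depth, with the exception of COX6B2. Reads given here are the fewest that fit the FPKM values. COX4I2, an isoform known from lung, had 0 reads in all libraries but IFN-beta replicate 2, whose 0.149 FPKM fits 1 read or more. COX6A2 and COX7A1, the muscle isoforms, had 0 reads in all 6, as had COX7B2. COX8C had 2 reads in IFN-beta replicate 2, 1 in replicate 3 and 0 elsewhere. In the library with the fewest reads, a floor of 3 reads corresponds to 0.465 FPKM for COX4I2 and 0.215 FPKM for COX8C, for counting error only. Both floors rest on the smallest lengths that fit, 250 and 540 bases, and a longer length would lower them. COX6B2, a testis isoform, had 11, 6 and 3 reads in control and 3, 4 and 10 reads with IFN-beta, at or above the floor in each library and with overlapping groups. Of its exon bases 30.4% overlap another gene on the same strand and 12.0% of its 50-base words occur elsewhere, so these reads may not all be its own. The ubiquitous isoforms COX4I1, COX6A1, COX6B1, COX7A2, COX7B and COX8A thus supplied nearly all reads of their pairs in both groups.

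In complex V, 18 of 19 genes were tested, 17 of these fell and the median log2 change was -0.34. ATP5MGL, a copy of the ATP5MG gene, had 0 reads in every library. The size of the change differed between the parts of the enzyme. The summed level of the F1 head genes was 13.97% lower, that of the central stalk 19.5%, that of the membrane supernumerary subunits 25.7%, that of the peripheral stalk 26.3% and that of the c ring 33.5% lower. Sums follow the most abundant genes, and the median log2 changes of the genes gave another order. Medians were -0.23 (F1 head), -0.28 (membrane supernumerary), -0.32 (central stalk), -0.40 (peripheral stalk) and -0.53 (c ring). The membrane supernumerary genes alone ranged from -0.67 to -0.14. The whole complex summed to 4258 ± 182 FPKM in control and 3404 ± 69.6 FPKM with IFN-beta, 20.1% lower. Differences between these parts were not tested.

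ATP5F1A and ATP5F1B form the head that binds nucleotides, with the catalytic sites mainly on the beta subunit. ATP5F1B had the highest level of all members, with 1324, 1332 and 1365 FPKM in control and 1152, 1149 and 1184 FPKM with IFN-beta. It fell by a smaller proportion than most members (log2 change -0.21 ± 0.037, limma adjusted p = 0.00213), and the change was -0.01 after quantile normalization (limma adjusted p = 0.803). ATP5F1A had 507, 516 and 532 FPKM against 443, 426 and 443 FPKM (-0.24 ± 0.037, limma adjusted p = 0.000841). In both head genes all IFN-beta libraries lay below all controls. In the central stalk, which turns inside the head, ATP5F1C (-0.32 ± 0.057) and ATP5F1E (-0.35 ± 0.079) fell. ATP5F1D had 51.3, 47.2 and 52.2 FPKM against 44.2, 39.8 and 51.0 FPKM and did not pass (-0.16 ± 0.083, limma adjusted p = 0.148). With IFN-beta replicate 3 left out it passed (-0.26, limma adjusted p = 0.0192).

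The c ring, the proton-driven rotor in the membrane, is built from 1 mature protein that ATP5MC1, ATP5MC2 and ATP5MC3 all encode, each with its own import peptide. ATP5MC2 (chromosome 12, 53632726 to 53677408) had 82.3, 87.6 and 92.0 FPKM in control and 44.1, 42.5 and 40.8 FPKM with IFN-beta. It fell from 87.3 ± 4.87 to 42.4 ± 1.66 FPKM, or by 51.4%, with a log2 change of -1.03 ± 0.051 (limma adjusted p = 8.92e-07). This was the largest fall among the members and the 48th lowest change of the 15163 genes tested. ATP5MC1 (chromosome 17, 48892765 to 48895871) had 138, 147 and 148 FPKM against 95.9, 100.03 and 103 FPKM (-0.53 ± 0.043, limma adjusted p = 2.22e-05). ATP5MC3 (chromosome 2, 175176258 to 175184607) had 123, 120 and 129 FPKM against 92.3, 92.1 and 99.6 FPKM (-0.39 ± 0.045, limma adjusted p = 0.000197). Groups did not overlap in any of the 3 genes, and the 3 changes were ordered ATP5MC2, ATP5MC1, ATP5MC3. The promoter windows of ATP5MC2, which has several starts, hold NRF1 letters, and that of ATP5MC1 holds neither NRF1 nor ETS letters.

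The 3 genes' shares of the summed c subunit FPKM showed differences of either sign between the groups. ATP5MC2 supplied 24.0%, 24.7% and 24.9% of their summed FPKM in control and 19.0%, 18.1% and 16.7% with IFN-beta, a difference of -6.58 percentage points (two-sided exact permutation p = 0.1). ATP5MC3 supplied 35.7%, 33.9% and 35.0% in control and 39.7%, 39.3% and 40.9% with IFN-beta, a difference of 5.10 points (exact permutation p = 0.1). ATP5MC1 supplied 40.6% ± 0.722 in control and 42.1% ± 0.718 with IFN-beta, 1.47 points more, with overlapping groups (exact permutation p = 0.2). Adjusted over the 3 shares, these exact permutation p-values were 0.15 for ATP5MC2 and ATP5MC3 and 0.2 for ATP5MC1. With 3 libraries against 3 the smallest possible p is 0.1, so none could pass 0.05. The shares sum to 100% and are not independent. They also rest on the lengths behind the FPKM, 710 bases for ATP5MC1, 1100 for ATP5MC2 and 1824 for ATP5MC3. By reads ATP5MC3 stood highest in every library, with 6618 in control replicate 1 beside 2904 for ATP5MC1 and 2678 for ATP5MC2. Which gene supplies most c subunit transcripts therefore depends on these lengths.

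**Figure D3:**
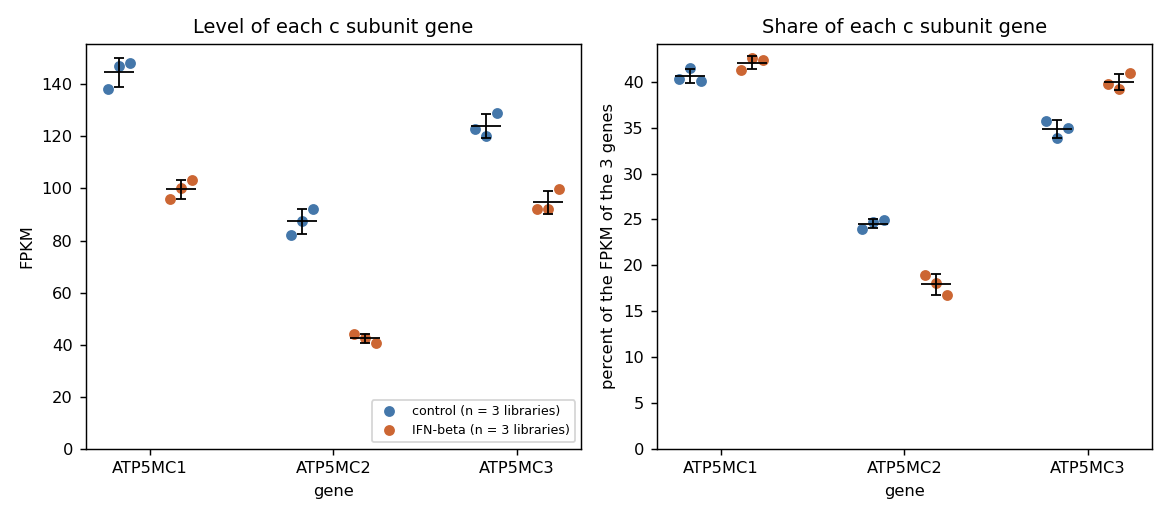
Left, FPKM of the 3 c subunit genes in each library; right, each gene's percent of their summed FPKM, with bars for the mean and error bars for the SD (n = 3). ATP5MC2 drops from 87.3 to 42.4 FPKM, and its share from 24.5% to 17.9%.

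The peripheral stalk holds the head still against the rotor, and all 4 of its genes fell. ATP5PB went from 277 ± 18.3 to 198 ± 4.48 FPKM (log2 change -0.48 ± 0.050), ATP5PD (chromosome 17, 75038863 to 75046985) from 158 ± 7.89 to 118 ± 12.0 FPKM (-0.42 ± 0.072) and ATP5PF from 121 ± 8.04 to 92.5 ± 3.88 FPKM (-0.38 ± 0.055). ATP5PO, the subunit at the top of the stalk, was listed far lower, at 13.2, 12.0 and 10.4 FPKM in control and 8.86, 9.60 and 9.26 FPKM with IFN-beta (-0.34 ± 0.084, limma adjusted p = 0.0111). Of the exon bases of ATP5PO 69.0% overlap another gene on the same strand, AP000311.1, so its level is uncertain.

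The supernumerary membrane subunits lie beside the c ring, where several of them take part in joining ATP synthases into dimers. ATP5MPL, also called ATP5MJ, had 161, 154 and 187 FPKM in control and 102, 102 and 110 FPKM with IFN-beta, the second largest fall of complex V (-0.67 ± 0.069, limma adjusted p = 9.36e-05). ATP5ME had 194, 180 and 195 FPKM against 120, 131 and 133 FPKM (-0.56 ± 0.051, limma adjusted p = 4.35e-05), although 49.9% of its exon bases lie opposite MYL5 and the use of strand in counting is not given in the sources used here. Both genes carry NRF1 letters before the start. Exon bases also lie opposite other genes in ATP5PF (31.1%, GABPA and JAM2), UQCRQ (30%, GDF9) and ATP5F1E (23.2%, TUBB1). In the remaining tested members this overlap was at most 12.2%, and its part in the levels was not tested. ATP5MD, also called ATP5MK, had a smaller log2 change of -0.28 ± 0.060. ATP5MF (97.1, 75.8 and 101 FPKM against 73.0, 76.4 and 73.9) and ATP5MG (25.3, 25.4 and 27.0 against 24.0, 23.3 and 23.0) passed narrowly.

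ATP5MF had a log2 change of -0.28 ± 0.094 (limma adjusted p = 0.0385) and overlapping groups. Its call ended in 9 of 18 alternatives, including leaving out control replicate 1 (limma adjusted p = 0.112), control replicate 3 (0.101) or IFN-beta replicate 1, 2 or 3 (0.0998, 0.070 and 0.0919). ATP5MG changed least of complex V (-0.14 ± 0.047, limma adjusted p = 0.039) and lost the call in 12 of 18. Those included leaving out control replicate 2 or 3 (adjusted limma p of 0.0687 and 0.0883) or IFN-beta replicate 1, 2 or 3 (0.063, 0.107 and 0.114). ATP5IF1, the inhibitor that stops the enzyme from running backwards, had 110, 106 and 122 FPKM in control and 98.2, 98.2 and 100.2 FPKM with IFN-beta (-0.18 ± 0.051, limma adjusted p = 0.0197). Its call ended in 5 of 18, among them without IFN-beta replicate 1 (limma adjusted p = 0.0609) or 2 (0.0625). The ratio of ATP5IF1 to ATP5F1B was 0.0838 ± 0.00484 in control and 0.0851 ± 0.000438 with IFN-beta.

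Some members were listed at low levels. Of the 6 with a control mean below 30 FPKM (SDHA, UQCRHL, UQCR11, COX6A1, ATP5PO and ATP5MG), 2 fell and their median log2 change was -0.17, while of the 37 at or above it 35 fell, with a median of -0.32. Over all genes tested 19.9% were called lower, and 6 genes are too few to set against that share. Reads were few in some of the 6, with 94 to 138 a library for SDHA and 100 to 160 for UQCRHL. The limit of 30 FPKM was chosen after the levels were seen, and the difference between the 2 sets was not tested. SDHA and UQCRHL share sequence with copies, and the exons of UQCR11 (12.2%), COX6A1 (30.6%), ATP5PO (69.0%) and ATP5MG (13.5%) overlap other genes on the same strand. Members above the limit have such overlap too, among them COX8A (34.5%), ATP5MF (30.4%), ATP5MD (15.4%) and SDHD (13.9%), and UQCRH shares words with its copy. Whether this bears on the levels listed was not tested.

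The nuclear sums can be set beside those of the mitochondrially encoded subunits of the same complexes. Cytochrome b (MT-CYB) was 34.1% lower with IFN-beta, MT-CO1 to MT-CO3 together 24.3% and MT-ATP6 with MT-ATP8 33.6%, beside 22.0%, 22.0% and 20.1% for the nuclear genes of complexes III, IV and V. These sums follow their most abundant genes. The F1 head genes made up 1858 of the 4258 FPKM of nuclear complex V in control and were 13.97% lower. Log2 changes of MT-CO1, MT-CO2 and MT-CO3 were -0.40, -0.16 and -0.72, and MT-CO2 was not called. The ratio of nuclear complex V to MT-ATP6 and MT-ATP8 was 0.825, 0.844 and 1.007 in control and 1.014, 1.06 and 1.13 with IFN-beta, so the groups lay close but did not overlap. The nuclear complex IV ratio to MT-CO1 to MT-CO3 was 0.0808 ± 0.00700 in control and 0.0835 ± 0.00730 with IFN-beta, and the complex III ratio to MT-CYB was 0.433 ± 0.0526 and 0.510 ± 0.0394. The ranges of the complex III and IV ratios overlapped. The FPKM sum over all genes was 3.14% lower with IFN-beta, and with every library rescaled to the same sum 34 members were called lower, with a median of -0.27.

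**Figure D4:**
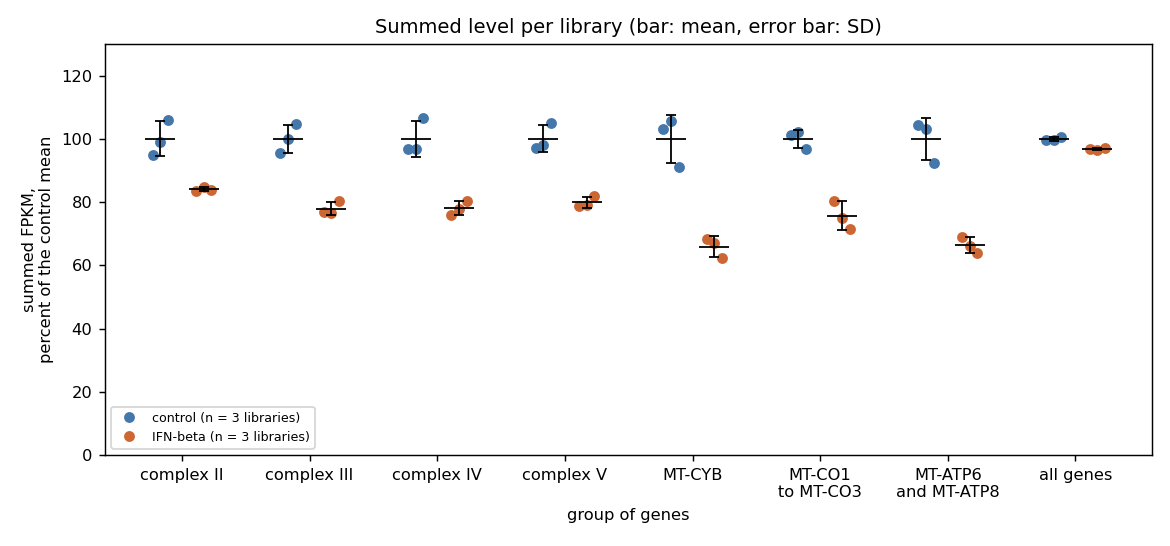
Summed FPKM of each gene group in each library, as a percent of its control mean (points: libraries; bars: mean with SD, n = 3). IFN-beta libraries lie below all controls in each of the 4 nuclear groups and the 3 mitochondrially encoded groups, and the sum over all genes is 3.14% lower.

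Other genes that act on the same complexes were taken from 3 lists. Of 43 tested assembly factors of complexes II to V (45 listed) 24 fell, 4 rose and 15 did not pass, with a median log2 change of -0.23, beside 19.9% lower and 22.5% higher over all genes tested. COX20, a chaperone of the complex IV subunit COX2, fell from 29.6 ± 1.29 to 17.2 ± 1.37 FPKM (-0.77 ± 0.064, limma adjusted p = 2.6e-05). TIMM21, which passes imported subunits to assembling complexes, fell from 52.2 ± 1.36 to 30.6 ± 1.37 FPKM (-0.76 ± 0.046, limma adjusted p = 3.65e-06). SDHAF3 (-0.61), a complex II factor, and LYRM7 (-0.58), a chaperone of the Rieske protein, followed. The 4 that rose were TMEM242 (0.31), SDHAF1 (0.28), COA7 (0.25) and UQCC6 (0.25), named after their values were seen. The SDHAF1 call ended without any 1 of 5 libraries: control replicate 2 or 3 (adjusted limma p of 0.0517 and 0.0611) or IFN-beta replicate 1, 2 or 3 (0.0630, 0.0683 and 0.0571).

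Among 13 regulators of respiratory gene transcription and mRNA 3 fell, 3 rose and 7 did not pass, with a median log2 change of 0.01. The 6 calls among 13 are near the share over all genes tested (42.4% called, 19.9% lower and 22.5% higher), so the count says nothing particular about regulators. SLIRP, which stabilises mitochondrial mRNA, fell from 320.5 ± 16.01 to 240.0 ± 1.14 FPKM (-0.42 ± 0.042, limma adjusted p = 8.07e-05). NRF1, whose binding letters were searched in the promoters, fell from 8.42 ± 0.395 to 6.98 ± 0.105 FPKM (-0.25 ± 0.064, limma adjusted p = 0.0119). GABPA, a factor that binds ETS letters, fell by 0.17 (limma adjusted p = 0.0456) on the log2 scale and lost the call in 9 of 18 alternatives, without control replicate 2 (0.149) or 3 (0.0677) or IFN-beta replicate 1, 2 or 3 (0.0654, 0.0908 and 0.144) among them. CLUH, which binds mRNAs of mitochondrial proteins, rose by 0.25 on the log2 scale, ESRRA, a nuclear receptor, by 0.22 and PPRC1, a coactivator, by 0.17. With control replicate 2 left out ESRRA did not pass (limma adjusted p = 0.0556). TFAM, which packages mitochondrial DNA, stood at 69.8 ± 4.66 and 70.7 ± 1.252 FPKM (0.02).

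Of the 8 listed carriers and partners, 6 of them mitochondrially encoded, 7 fell and MT-CO2 did not pass, beside the 19.9% called lower over all genes tested. The nuclear pair is named outside the rule for naming genes. NDUFA4, which is found with complex IV, had 314, 327 and 376 FPKM in control and 239, 243 and 246 FPKM with IFN-beta (-0.48 ± 0.062, limma adjusted p = 0.000346). CYCS, the cytochrome c that links complexes III and IV, had 314, 338 and 363 FPKM against 303, 307 and 298 FPKM (-0.16 ± 0.052, limma adjusted p = 0.0351). The CYCS call ended in 8 of 18 alternatives, among them those leaving out control replicate 2 or 3 (adjusted limma p of 0.0892 and 0.0576) or IFN-beta replicate 1, 2 or 3 (0.0858, 0.0749 and 0.0999).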

How the data were processed

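The authors deposited 1 table of FPKM for 60671 genes, used as given. The submitters' processing notes name GRCm38 and mm10, which are mouse builds, but all 60671 identifiers are human. Of 58453 identifiers in GENCODE release 29, 76.8% had the same coordinates there, so GRCh38 is inferred. The labels' protocols name CLC Genomics Workbench 11.0.1 without a step, and both TRIzol and an RNeasy kit. No source used here gives the aligner, the counting program or its use of strand.

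The main test was limma 3.58.1 (R 4.3.3) on log2(FPKM + 0.5), for genes whose mean FPKM reached 0.5 (eBayes with a trend, two-sided, Benjamini-Hochberg over 15163 genes, threshold 0.05), and single shares by an exact permutation test (scipy 1.17.1). The ATP5MC2 and ATP5MC3 share tests were added after seeing the data. Whole reads were recovered from the FPKM steps for 100% of 30507 genes within 0.01 reads, with 25832158 to 30594527 reads a library and a floor of 3 reads; voom on them called 6874 genes.

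The fit was also run on simulated counts whose scatter was set by hand, not estimated from these libraries, so that run does not show how reliable these calls are. The members and lists were chosen with earlier results of these data known. Named were isoform pairs, ATP5IF1, complex II, CYC1, UQCRB, COX6C, ATP5MC1, the largest and smallest change in complexes III to V and up to 4 called genes a list; further members are named to account for each. Alternatives were pseudocounts of 0.1 and 1, filters (none, mean FPKM of 2), scalings, no trend, the replicate block, each library left out, the length trend removed, voom, and, added after seeing the data, rescaling without mitochondrial genes. All value columns were used. One gene of the list that checks the treatment is not reported here. Coordinates of genes are as deposited.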

Additional observations from a re-analysis of the deposited data

How the results depend on the processing

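Across the 18 alternatives 32 to 38 members were called lower and 0 higher, and all-gene medians stayed between -0.05 and 0.05. Of the 37 called members 31 kept the call in each alternative, and ATP5F1B, ATP5IF1, ATP5MF, ATP5MG, COX6B1 and COX8A lost it at least once. The 2 changes of sign were of SDHA, to -0.043 after quantile normalization and to -0.0042 without control replicate 3, with 0.14 as the highest value when 1 library was left out; the cause was not tested. Leaving out 1 library gave 33 to 36 members called lower and 5166 to 6162 genes called in all. Higher genes were 53.2% of all calls, 63.2% with all libraries scaled to 1 sum and 41.3% after quantile normalization. Same-numbered libraries of the 2 groups did not deviate together (r between -0.098 and -0.052), so the numbers were not taken as pairs. With the replicate number as a block 35 members were called lower and 5817 genes in all. Depth limits the genes near 0: 3 reads in the shallowest library equal 0.120 FPKM for COX6B2.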

Other observations

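Among the 97 symbols that the rule left out, 4 passed the filter on low values. COX6A1P2, a processed copy of COX6A1, had 13.6, 14.4 and 13.3 FPKM in control and 9.34, 9.01 and 8.12 FPKM with IFN-beta, a log2 change of -0.62 ± 0.069 (limma adjusted p = 0.00015). COX6A1 itself stood higher, at 22.4 ± 3.58 FPKM in control and 19.4 ± 1.33 FPKM with IFN-beta, which did not pass the test. COX5BP6 had 4, 7 and 4 reads in control and 11, 8 and 8 with IFN-beta (0.57 ± 0.172, limma adjusted p = 0.0249). Its call ended in 7 of the 17 alternatives that gave a value, among them those leaving out control replicate 1 or 3 (adjusted limma p of 0.0762 and 0.0617) or IFN-beta replicate 1 or 2 (0.0900 and 0.0590). ATP5MC1P6 and UQCRFS1P1 did not pass. All 4 are copies of expressed genes, and they were named after their values were seen.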
